A study of Mus musculus with 2 samples.

Results

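The enzymes that write and remove DNA methylation were followed in mouse leukaemia cells with and without Jam3, the gene of a junctional adhesion protein of the cell surface. The set held 10 genes: the methyltransferase genes Dnmt1, Dnmt3a and Dnmt3b, the cofactor genes Dnmt3l and Uhrf1, the dioxygenase genes Tet1, Tet2 and Tet3, and the isocitrate dehydrogenase genes Idh1 and Idh2. Every non-control probe that carried one of these gene names was taken, which gave 16 probes of 41174 on the array and 10 genes of 27337. Of these genes, 6 had 1 probe, 2 had 2 probes and 2 had 3.

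The data were 2 one-colour arrays, 1 for Jam3-null cells and 1 for wild-type (WT) cells. Both held RNA of leukemia-initiating cells, the cells able to start the leukaemia anew, taken from the bone marrow of female mice. The leukaemias of both genotypes carried the MLL-AF9 fusion with a YFP reporter, and the cells were sorted as Mac-1-positive and c-Kit-positive. Each label names 3 mice with leukaemia. How the RNA of these mice was combined, their age and strain, and how Jam3 was deleted are not given in the sources used here.

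With 1 array per genotype there was no replicate and no test, so a fold below compares 2 arrays and has no check against the spread between animals. Each array was scaled to its 75th percentile, and a log2 difference is the Jam3-null value minus the WT value, so that it is positive where Jam3-null is higher. The error given with a difference is the SD from the scanner software's error model, and 95% measurement intervals were made from it. It covers the reading of the spots only. For bright spots the model's error is close to a fixed share of the signal, so this SD is nearly constant (median 0.20 over all measured genes). It is thus not a spread observed among spots, which had a median SD of 0.09 in probes printed in repeat spots. Whether a measurement interval includes 0 depends on that model. In bulk RNA, fewer cells of a type and less RNA per cell cannot be told apart.

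The scanner software called 55.0% of spots well above background in the Jam3-null sample, against 61.8% in the WT sample. All 16 probes of the set were well above background on both arrays. Jam3 itself was below that level on both arrays for its 2 probes, so this gene did not check the labels. Of the genes behind the sort, Kit was at a log2 difference of 0.09 and Itgam, which encodes a chain of Mac-1, at 3.71. The leukaemia genes Hoxa9 and Meis1, which were not used in the sort, were at 0.73 and 0.81. All 9 measured neutrophil maturation markers were at least 2-fold higher on the Jam3-null array, with a median of 3.30, and their summed scaled signal was 1503 in the Jam3-null sample, against 248.3 in the WT sample. Of all measured genes, 10.3% passed 2-fold higher and 8.59% passed 2-fold lower. All 6 measured mast cell, basophil and eosinophil markers were at least 2-fold lower, with a median of -2.43. The summed scaled signal of all 8 markers of that list on the array was 8.87 in the Jam3-null sample, against 48.1 in the WT sample. Of the 8, Fcer1a was well above background on the WT array only. After normexp background correction 5 of the 6 measured markers passed 2-fold, with Epx at -0.97, and with no filter on dim probes the median was -1.75. The part of these cell types in the differences below was not tested.

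Methylation of cytosine at CpG sites is copied onto the new strand after replication by DNMT1, which UHRF1 brings to hemimethylated DNA. DNMT3A and DNMT3B methylate unmethylated sites, and DNMT3L, which has no activity of its own, stimulates them. TET enzymes oxidise 5-methylcytosine, a reaction that needs iron, oxygen and 2-oxoglutarate. IDH1 in the cytosol and IDH2 in mitochondria make 2-oxoglutarate from isocitrate, and their mutant forms in human acute myeloid leukaemia make 2-hydroxyglutarate, which inhibits TET enzymes. DNMT3A, TET2, IDH1 and IDH2 are recurrently mutated in that disease. The arrays measured RNA and neither methylation nor enzyme activity.

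The probes of 4 genes are shown because the main contrasts rest on them: Dnmt1, nearly level between the arrays, and Dnmt3a, Idh1 and Idh2, each past 2-fold. They are printed 5′ to 3′ as given in the array files. The Idh1 probe is printed up to and including its stop codon, which is in capitals.
Dnmt1: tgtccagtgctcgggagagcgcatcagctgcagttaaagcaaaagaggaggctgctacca
Dnmt3a: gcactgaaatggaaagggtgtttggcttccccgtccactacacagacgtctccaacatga
Idh1: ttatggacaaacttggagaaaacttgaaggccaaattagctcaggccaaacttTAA
Idh2: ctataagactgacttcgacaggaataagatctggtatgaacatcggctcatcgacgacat
In mm9 coordinates the Dnmt1 probe lies on the minus strand at chr9:20711973-20712341 and the Dnmt3a probe on the plus strand at chr12:3906868-3907649. These intervals span 369 and 782 bases for probes of 60 bases, so both cross at least 1 intron. The Idh1 probe lies at chr1:65206035-65206094 and the Idh2 probe at chr7:87242779-87242838, both on the minus strand. None of the 16 probes (0 of 16) shared a run of 20 bases with a probe of a gene outside the set, so no such overlap with another probe was found.

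Idh2, Dnmt3b and Dnmt3a were lower on the Jam3-null array, and Uhrf1 and Dnmt3l were lower by less. Idh1 was higher, and Dnmt1 and the TET genes were nearly level. At 2-fold, 3 of the 10 genes were lower (Idh2, Dnmt3b and Dnmt3a), beside 8.59% of the 14371 genes measured on both arrays. Only Idh1 of the 10 was at least 2-fold higher, beside 10.3% of those genes, which is no more than the background. The other 6 genes were within 2-fold. At 1.5-fold, 5 genes were lower, with Uhrf1 and Dnmt3l added, beside 20.3% of measured genes, and 1 was higher, beside 18.4%. In all, 7 of 10 genes were below 0, against 55.2% of measured genes, and the median of the set was -0.42, against -0.07 over all measured genes. By probe, 4 of 16 were at least 2-fold lower and 1 was at least 2-fold higher, beside 7.86% and 9.85% of the 21917 probes measured on both arrays.

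**Figure D1:**
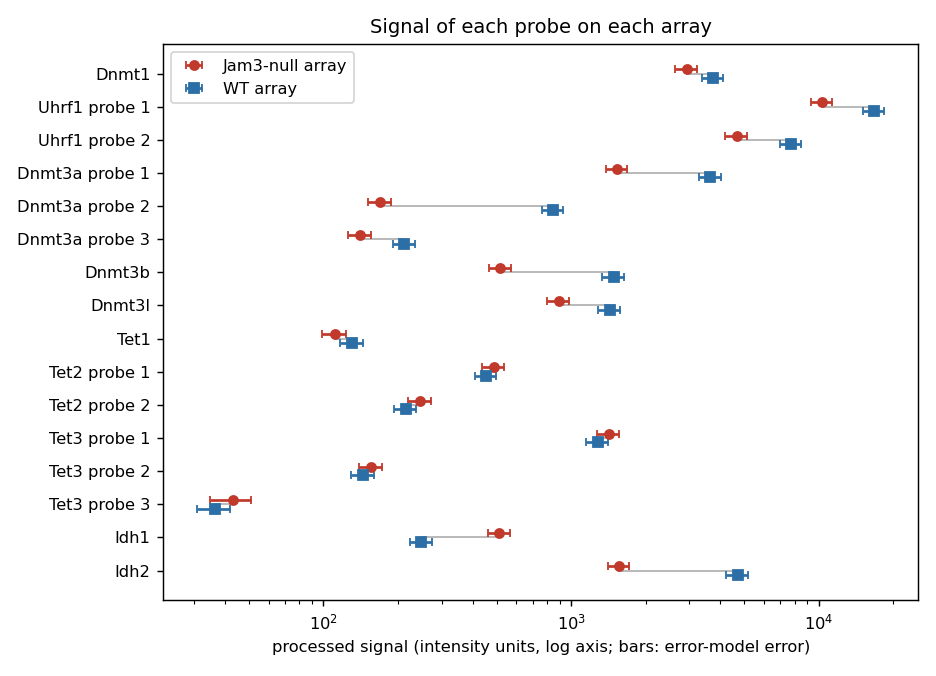
Processed signal of each of the 16 probes (log axis, intensity units) on the Jam3-null array (circles) and the WT array (squares), with the error-model error as bars; probes of a gene are numbered from the brightest. The Idh2, Dnmt3b and first and second Dnmt3a points lie far apart with WT to the right, the Idh1 points lie apart with Jam3-null to the right, and the TET points nearly coincide.

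Signals below are the background-subtracted intensities of the scanner software before scaling, each with its error-model error. Among maintenance genes, Dnmt1 had a signal of 2925 ± 293 in the Jam3-null sample, against 3740 ± 374 in the WT sample. The log2 difference was -0.26 ± 0.20, and its measurement interval, from -0.66 to 0.14, includes 0. Uhrf1, whose product reads hemimethylated CpG sites, had 10307 ± 1031 in the Jam3-null sample, against 16701 ± 1670 in the WT sample with its brighter probe. Its log2 difference was -0.60 ± 0.20, or 1.52-fold lower. The second Uhrf1 probe had 4660 in the Jam3-null sample, against 7723 in the WT sample and a difference of -0.63. Both Uhrf1 probes thus gave nearly 1 value and measurement intervals below 0, while neither reached 2-fold. The difference of Uhrf1 minus that of Dnmt1 was -0.34 ± 0.29, less than 2 SD of its measurement error.

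Of the de novo genes, Dnmt3b and Dnmt3a with its brightest probe showed larger differences than Dnmt1 and Uhrf1. The difference of Dnmt3l was close to that of Uhrf1 (-0.60). Dnmt3b had a signal of 517.9 ± 52.1 in the Jam3-null sample, against 1484 ± 148 in the WT sample, a log2 difference of -1.42 ± 0.20, which is 2.68-fold lower. Of all measured genes, 3.91% had a lower value. Dnmt3b rests on a single probe, on the plus strand at chr2:153513083-153513142 (mm9). Dnmt3l had 892.1 ± 89.4 in the Jam3-null sample, against 1433 ± 143 in the WT sample. Its log2 difference of -0.59 ± 0.20 was short of 2-fold, with a measurement interval from -0.99 to -0.19.

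Dnmt3a was lower with each of its 3 probes, but by unlike amounts. The brightest probe had 1530 ± 153 in the Jam3-null sample, against 3649 ± 365 in the WT sample, a log2 difference of -1.16 ± 0.20, or 2.23-fold lower. The second, at chr12:3908227-3908286, had 168.9 ± 18.0 in the Jam3-null sample, against 845.2 ± 84.6 in the WT sample. Its difference of -2.23 ± 0.21 was 4.68-fold, the largest of the 16 probes in size. The third, at chr12:3912590-3912649, had 141.0 ± 15.2 in the Jam3-null sample, against 211.8 ± 21.5 in the WT sample, and its difference was -0.49 ± 0.21. With this probe alone, which is the dimmest, Dnmt3a would not count among the genes past 2-fold.

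The 3 Dnmt3a probes spanned 1.74 in log2. Among the 1239 genes with 3 measured probes the median span was 0.44, and 1.94% had a span at least as wide. The array files list the same 3 RefSeq transcripts for each of these probes, and in which exon or untranslated region each probe lies was not determined here. The mean over the probes was -1.29. By contrast, the other members with several probes were even: the spans were 0.03 for Uhrf1, 0.08 for Tet2 and 0.13 for Tet3.

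**Figure D2:**
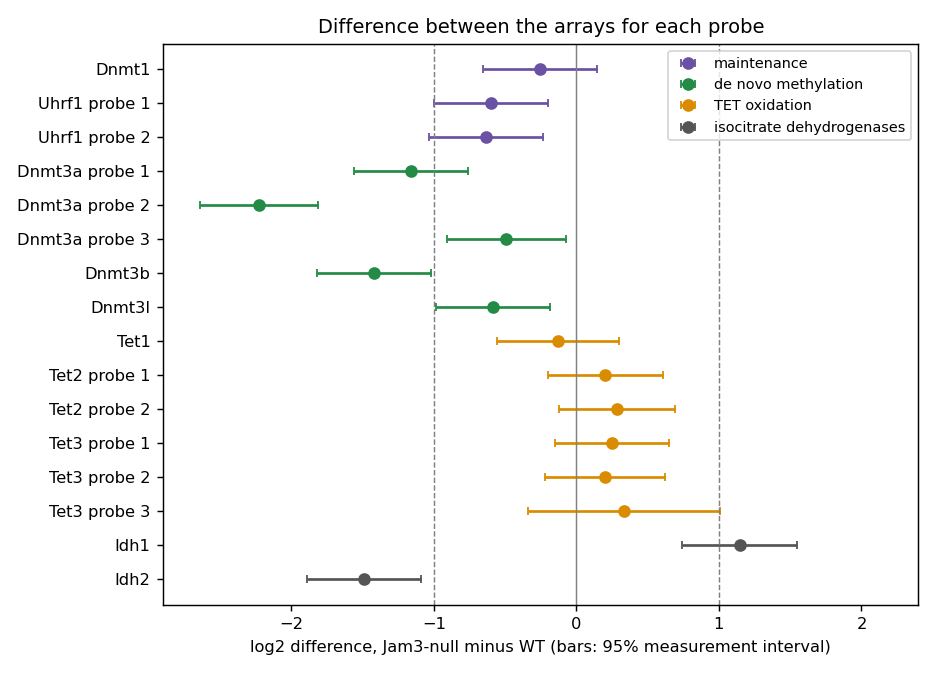
Log2 difference, Jam3-null minus WT, of each probe, with 95% measurement intervals from the error model as bars and dashed lines at 2-fold; colours give the role of the gene. The maintenance and de novo probes all lie below 0, the Tet2 and Tet3 probes lie between 0.20 and 0.33, and Idh1 and Idh2 lie on opposite sides at 1.14 and -1.49.

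The TET genes differed little, and each measurement interval included 0. Tet1, which encodes a dioxygenase with a CXXC domain, had 111.4 ± 12.4 in the Jam3-null sample, against 130.4 ± 13.4 in the WT sample, a log2 difference of -0.13 ± 0.22. Tet2, the TET gene most often mutated in human myeloid disease, had 487.8 ± 49.1 in the Jam3-null sample, against 453.1 ± 45.4 in the WT sample with its brighter probe, a difference of 0.20 ± 0.21. Its other probe had 245.2 in the Jam3-null sample, against 215.2 in the WT sample and a difference of 0.28. Tet3 had 1420 ± 142 in the Jam3-null sample, against 1279 ± 128 in the WT sample, a difference of 0.25 ± 0.20, and its 2 dimmer probes were at 0.20 and 0.33. Tet2 and Tet3 were thus slightly higher with all 5 of their probes, and Tet1 slightly lower, each by less than its measurement interval. The measurement interval of the brightest Tet3 probe, from -0.15 to 0.65, leaves out a 2-fold difference in either direction on these arrays, as do those of the brighter Tet2 probe, from -0.20 to 0.60, and of Tet1, from -0.56 to 0.30.

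A difference between members does not depend on the factor by which an array is scaled. Dnmt3b minus Dnmt1 was -1.16 ± 0.29 and Dnmt3b minus Tet3 was -1.67 ± 0.29, so the ratio of Dnmt3b to Tet3 signal was 3.18-fold lower on the Jam3-null array. Dnmt3a minus Tet2 was -1.36 ± 0.29 with the brightest Dnmt3a probe. Dnmt3b minus Dnmt3a was -0.26 ± 0.29 with the brightest Dnmt3a probe, 0.80 ± 0.29 with the second and -0.93 ± 0.30 with the third, so its sign depended on the probe.

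The isocitrate dehydrogenase genes went opposite ways. Idh1 had a signal of 513.9 ± 51.7 in the Jam3-null sample, against 248.5 ± 25.1 in the WT sample, a log2 difference of 1.14 ± 0.21, or 2.21-fold higher. Of all measured genes, 91.5% had a lower value. It was just under 2-fold after normexp background correction, at 0.97. Idh2 had 1562 ± 156 in the Jam3-null sample, against 4703 ± 470 in the WT sample, a difference of -1.49 ± 0.20, or 2.82-fold lower, and 3.50% of measured genes had a lower value. Idh1 minus Idh2 was 2.64 ± 0.29, so the ratio of Idh1 to Idh2 signal was 6.22-fold higher on the Jam3-null array. Each gene rests on 1 probe.

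Genes that act with the set were taken as 6 lists, whose members were chosen with earlier results of these arrays known. In the list of 2-oxoglutarate supply and use, 16 of 17 measured genes were below 0, 3 were past 2-fold lower and 0 past 2-fold higher, with a median of -0.64. Of all measured genes, 55.2% were below 0, 8.59% passed 2-fold lower and 10.3% passed 2-fold higher, and the counts of this and the following lists stand beside these shares. The mitochondrial aspartate aminotransferase gene Got2 was at -1.35 and the succinate dehydrogenase gene Sdha at -1.05. The subunit genes Idh3a and Idh3g of the NAD-dependent isocitrate dehydrogenase were at -0.77 and -0.53. Idh1, at 1.14, lay above all 17, whose highest value, that of the glutamate dehydrogenase gene Glud1 (named after its value was seen), was 0.11.

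In the methionine cycle, which supplies S-adenosylmethionine, the methyl donor, 3 of 12 measured genes were past 2-fold lower and 0 past 2-fold higher, with a median of -0.35. Ahcy, whose product breaks down the inhibitory by-product S-adenosylhomocysteine, had 4905 in the Jam3-null sample, against 16544 in the WT sample, a difference of -1.66 with all 3 probes lower. The spermidine synthase gene Srm was at -1.28 and the methylthioadenosine phosphorylase gene Mtap at -1.09 (-0.82 after normexp correction). The synthetase gene Mat2a, the brightest of the list, was at 0.03, with 26407 in the Jam3-null sample, against 27715 in the WT sample.

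Among partners of maintenance methylation, 10 of 12 measured genes were below 0 and 0 passed 2-fold in either direction (median -0.24). The remodeller gene Hells was at -0.62, Cdca7, whose product recruits it, at -0.68, and Pcna, the replication clamp, at -0.28. Trim28, a corepressor gene, had 7902 in the Jam3-null sample, against 16882 in the WT sample, just inside 2-fold. After normexp correction it was at -1.01, so that 1 of the 12 passed 2-fold. The 15 measured genes of replication licensing and S phase had a median of -0.54, with 14 below 0, 2 past 2-fold lower and 0 past 2-fold higher. Of these, Gins2 was at -1.24, Pola1 at -1.04 and the brightest, Mcm6, at -0.74. Uhrf1, at -0.60, lay close to the median of this list, and Dnmt1, at -0.26, lay above it.

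Readers of methylated CpG and base excision repair genes went both ways. Of 13 measured genes, 7 were above 0, the highest at 0.70, and 6 were below 0. Past 2-fold, 3 were lower and 0 higher (median 0.06, and -0.46 among genes with a mean signal above the median). Parp1, a sensor of DNA breaks, had 1137 in the Jam3-null sample, against 4648 in the WT sample, a difference of -1.94. The endonuclease gene Apex1 was at -1.43 and Mbd3, a subunit gene of the NuRD complex, at -1.05 (-0.99 after normexp correction). Of 8 measured TET partners and regulators, 3 were past 2-fold higher and 1 past 2-fold lower. The median of 0.49 was 0.22 with no filter on dim probes and 1.22 among genes with a mean signal above the median. The higher ones were the stress genes Gadd45g (1.98), Gadd45a (1.38) and Gadd45b (1.22), whose part in demethylation is disputed. Cxxc5, a CXXC protein gene related to Cxxc4, was at -3.26, with 46.0 in the Jam3-null sample, against 471.5 in the WT sample, and at -2.02 after normexp correction. Bcat1, whose enzyme uses 2-oxoglutarate, was well above background on the WT array only.

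**Figure D3:**
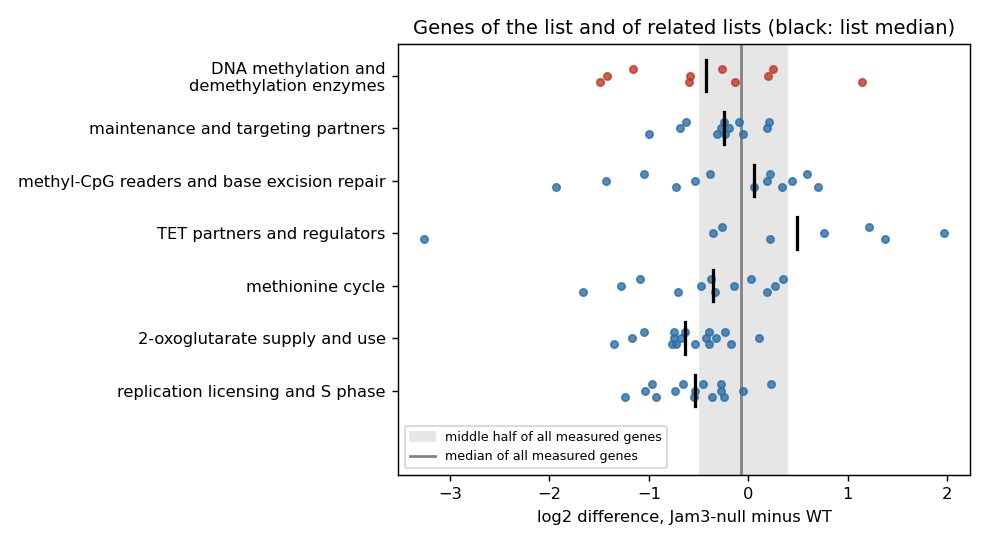
Log2 difference, Jam3-null minus WT, of each gene measured on both arrays in the set and in 6 related lists, with each list's median in black, the median of all measured genes as a grey line and their middle 50% shaded from -0.49 to 0.39. The 2-oxoglutarate and S phase lists lie almost wholly below 0, while the enzymes themselves spread from -1.49 to 1.14.

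RefSeq promoters, from 250 bases before to 50 after a start site on GRCm38.p6, were listed for all 10 genes, 18 in all. They held between 2 and 57 CpG dinucleotides, against a median of 7 over all 32851 promoters. The highest count was that of Tet2, and the 3 promoters of Dnmt3l held 3 to 6. The GC box GGGCGG was found on either strand in 15 of 18, against 35.7% of all promoters, and the TATA box TATAAA in 0 of 18, against 13.6%. The CCAAT box was in 7 of 18, against 37.4%, and the E box CACGTG in 2 of 18, against 7.15%. The E2F motif TTTCGCGC, found in 0.323% of all promoters, was found in 2 of 18, and these belonged to the maintenance pair Dnmt1 and Uhrf1. The variant TTTGGCGC was in 1 of 18, against 0.514%. E2F factors drive genes of S phase, and these windows of 30 bases are shown for that reason, with the match on either strand in capitals.
Dnmt1: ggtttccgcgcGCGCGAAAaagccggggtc
Uhrf1: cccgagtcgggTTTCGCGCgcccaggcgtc
The Dnmt1 window is at chr9:20952824-20952853 on the minus strand and the Uhrf1 window at chr17:56304117-56304146 on the plus strand. The match begins 219 bases before one of the 3 listed Dnmt1 starts and 185 bases before one of the 2 Uhrf1 starts. A match describes the sequence and shows no binding.

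**Figure D4:**
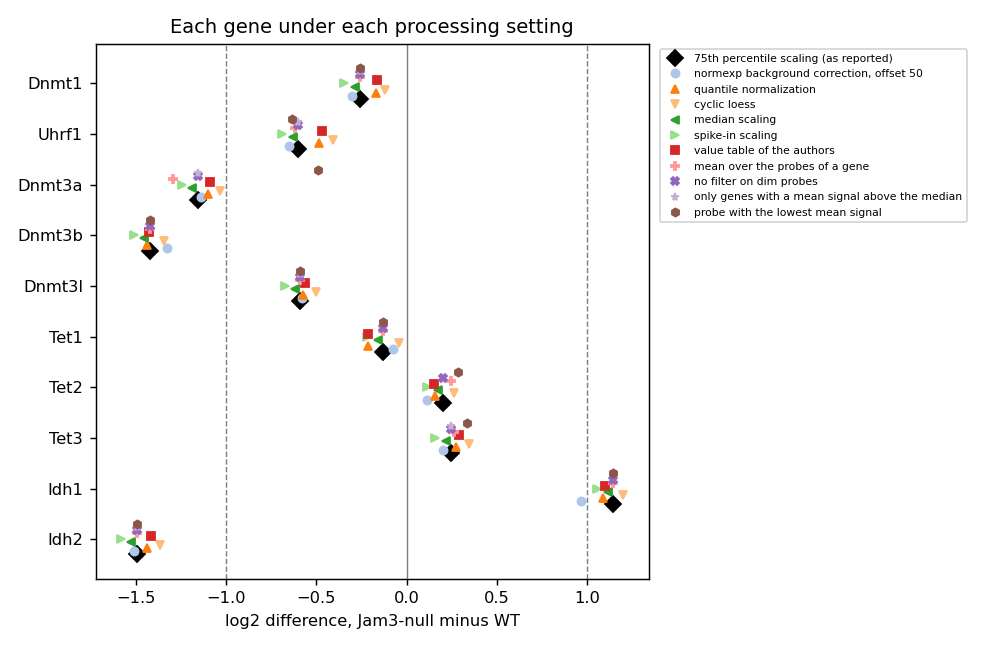
Log2 difference, Jam3-null minus WT, of each gene under the reported processing (black diamonds) and 10 alternatives, with dashed lines at 2-fold. Each gene keeps its sign throughout, though some alternatives cannot change a gene's value. Idh1 lies just inside the dashed line, at 0.97, in 1 alternative, and Dnmt3a at -0.49 in another.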

How the data were processed

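Total RNA was amplified and labelled with Cy3, per the labels' protocols. Per the file headers, the deposited spot intensities come from version 10.7.3.1 of Agilent Feature Extraction (10.7 per the submitters' processing notes); the processed intensity is background-subtracted and detrended within an array, and was not normalized between arrays. The authors also deposited a table of log2 values, with the same median (5.66) in both columns, which followed the processed signals closely (Pearson r across probes of 0.999 for either array). How it was normalized is not stated in what was used here, and it served as an alternative.

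Spots flagged as outliers (151 on the Jam3-null array, 163 on the WT array) were left out, and 0 non-control spots were saturated. The processed signal, divided by its 75th percentile on that array (667.8 for Jam3-null, 713.9 for WT) and put on a log2 scale, was averaged per probe. A gene took its probe with the highest mean signal among those well above background on both arrays. Probes were named by RefSeq accession (27668), unique older symbol (471) or the name in the file (13035). In 127 probes printed in repeat spots the median SD of a log2 difference was 0.09, beside 0.20 from the error model. Brightness over background and the number of arrays limit the precision. Members and lists were chosen with earlier results of these data known. All members are named; of each list, up to 4 genes with the largest absolute difference and the brightest; 1 such gene is not reported here. R 4.3.3, limma 3.58.1, Python 3.11.15, numpy 2.4.6 and pandas 2.3.3 were used.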

Additional observations from a re-analysis of the deposited data

How the results depend on the processing

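All 96 values of single members under 10 alternatives kept their sign, and 94 stayed on their side of 2-fold. The exceptions were Idh1 after normexp background correction with an offset of 50 (0.97) and Dnmt3a with the dimmest measured probe of each gene (-0.49), an alternative chosen after the data were examined. Part of the 96 could not differ from the reported values. Dropping the filter on dim probes, or keeping only the brighter genes, left each member's value as it was. For the 6 genes with 1 probe, the mean over probes and the dimmest probe also gave the reported value. Genes at least 2-fold higher numbered 0 instead of 1 after normexp correction, 0 among genes with a mean signal above the median, where Idh1 was not among the 6 members left, and 0 at a threshold of 3-fold. Genes at least 2-fold lower numbered 3, and 2 among the brighter genes or with the dimmest probe. At 1.5-fold 5 were lower, beside 20.3% of all genes, and at 3-fold 0. Of the 5, Uhrf1 and Dnmt3l fell short of 1.5-fold after quantile normalization, with cyclic loess and in the authors' values (-0.47 and -0.56). Dnmt3l also fell short after normexp correction (-0.58). Both passed with median scaling and spike-in scaling. The median of all measured genes ranged from -0.16 with spike-in scaling to 0.06 with cyclic loess, against -0.07 as reported (0.14 with no filter on dim probes, over 27337 genes). Relative to the reported median, Dnmt3a, Dnmt3b and Idh2 were still past 2-fold lower and Idh1 past 2-fold higher. The median of the 3 measured stroma and endothelium markers was -1.08 and turned to 0.13 with no filter on dim probes. With no filter on dim probes the medians were 0.22 for TET partners (0.49 as reported), -1.75 for mast cell, basophil and eosinophil markers (-2.43), 0.08 for megakaryocyte (2.02), -0.62 for B cell (-0.12) and 0.43 for T and NK cell markers (-0.14). Among the brighter genes they were -0.46 for readers and repair (0.06), 1.22 for TET partners, 1.95 for monocyte and macrophage (1.57), -2.09 for dendritic cell (-1.33), -0.44 for B cell and 1.84 for T and NK cell markers. After normexp correction they were 1.05 for monocyte and macrophage, -1.03 for dendritic cell and -0.53 for stroma and endothelium markers; the cause was not tested. The median of the S phase list was -0.32 after quantile normalization and -0.31 with cyclic loess, against -0.54 as reported. No paired analysis was possible because each genotype had 1 array, which also left no replicate to leave out.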

Other observations

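The nearest protein-coding genes on either side of each member, in RefSeq order on GRCm38.p6, were looked up after the members' values were seen. Of 20 such neighbours 16 were measured on both arrays, of which 2 were past 2-fold lower and 0 past 2-fold higher, beside 8.59% and 10.3% of all measured genes. Pomc, the hormone precursor gene next to Dnmt3a, had a signal of 64.6 in the Jam3-null sample, against 567.2 in the WT sample, a log2 difference of -3.04 ± 0.25, while Dtnb on the other side of Dnmt3a was at -0.24. Bola3, beside Tet3, was at -1.15. The genes beside Dnmt3b, Commd7 and Mapre1, were at -0.10 and -0.06. Of those beside Idh2, Zfp710 was at 0.94 ± 0.20 and Sema4b at 0.59 ± 0.37. Sema4b was dim, with 34.5 in the Jam3-null sample, against 24.4 in the WT sample, and its difference was less than 2 SD.

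Of the other marker lists, the monocyte and macrophage list had 4 of 7 measured genes past 2-fold higher in the Jam3-null sample, and the dendritic cell list had 4 of 6 past 2-fold lower (3 of 6 after normexp correction), beside the same shares of all measured genes. The summed scaled signal of all 8 monocyte and macrophage markers on the array was 271 in the Jam3-null sample, against 337 in the WT sample. Nearly all of both sums was Ly6c2, named after its value was seen. Before scaling Ly6c2 had 169410 in the Jam3-null sample, against 237295 in the WT sample, a log2 difference of -0.39. The sums thus say little about the other markers of that list. The erythroid, megakaryocyte, B cell, and T and NK cell lists had only 3, 2, 2 and 4 genes measured on both arrays, with medians of 0.56, 2.02, -0.12 and -0.14. With no filter on dim probes the megakaryocyte median was 0.08 and the T and NK cell median 0.43.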
